A study of Mus musculus with 4 samples.

Results

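The hedgehog genes followed here are the ligands *Shh*, *Ihh* and *Dhh*, the receptor *Ptch1*, the signal transducer *Smo*, the transcription factors *Gli1*, *Gli2* and *Gli3* and the ligand-binding protein *Hhip*. They were chosen by name, as every probe whose gene name in the array annotation is one of these symbols, which gave 15 of 56605 probes and 9 of 37325 genes. RNA of whole embryos was measured on one-colour Agilent mouse arrays, on which each spot carries a 60-base DNA probe and the brightness of its Cy3 label is what was measured. The question put to the arrays was how expression differs between embryos that lack the kinase Dyrk2 and wild type (WT) embryos. All embryos were of the C57BL/6 strain, and the 4 groups were WT and *Dyrk2*-/- embryos at embryonic day (E) 8.5 and at E10.5, with 1 array for each group and all 4 arrays on 1 slide. The mutant alleles carry small deletions in *Dyrk2* made with a Cas9 nickase, in 3 mouse lines, and the sources used here do not say which line was hybridized or how many embryos were behind each RNA.

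In hedgehog signaling a secreted ligand binds Patched1 on the receiving cell, which releases Smoothened from inhibition, and Smoothened then acts at the primary cilium to favor the activator forms of the Gli factors over their repressor forms. *Gli1*, *Ptch1* and *Hhip* are themselves switched on by the pathway and are often used as its readout, and Ptch1 and Hhip in turn bind the ligand and limit its spread. In the early embryo Shh comes from the notochord, the floor plate and the gut endoderm, Ihh acts in the visceral endoderm of the yolk sac and the gut, and Dhh acts in the gonad and around nerves and vessels.

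Values below are log2 of the processed intensity relative to the 75th percentile of the same array, so that a value of 0 lies at that percentile. They compare a probe between arrays and not one probe with another. A probe was well above background where the scanner software marked at least as many of its spots so as not. Each gene is given at its brightest probe, and a ratio of 1.5-fold or more between genotypes at a stage was counted as changed. With 1 array per group no p-value was computed for a genotype at a stage. Probes printed several times on an array put the spread of a log2 ratio at 0.13, which covers spots of the same array and not embryos. Scaling by spike-in control probes in place of the percentile would move the median log2 ratio of all probes at E8.5 from −0.01 to −0.55 and that at E10.5 from 0.01 to 0.17, and no scaling would move it to −0.26 and −0.12, so that every ratio below is relative to the other probes of its array. The stage, and the genotype over both stages, were tested with limma over all 4 arrays with 1 residual degree of freedom. That residual is the difference of the genotype ratio between the stages, and limma pools its spread over probes. The p-values therefore measure no spread between replicates, and the residual may be biological or technical. In whole embryos, fewer cells of a type and less RNA per cell cannot be told apart.

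*Dyrk2*, the targeted gene, comes first. Its brightest probe read 0.06 (log2) for WT and 0.76 for *Dyrk2*-/- at E8.5, then −0.31 and 0.34 at E10.5. *Dyrk2* signal was thus higher on both arrays labelled *Dyrk2*-/-, by 1.62-fold and 1.57-fold, and the other *Dyrk2* probe was 1.02-fold and 1.21-fold higher. The probes start at 118296479 and 118295164 on chromosome 10, too far apart for 1 of the small deletions to hold both. Whether either lies in the deleted bases is not known here, and *Dyrk2* did not check the labels. The mutant arrays are therefore called the arrays labelled *Dyrk2*-/-, and every direction between genotypes rests on those labels.

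Of the 9 hedgehog genes, 8 were well above background on all 4 arrays at their brightest probe, and *Dhh* was so on 3 of them. Between genotypes, *Hhip* was lower on the arrays labelled *Dyrk2*-/- at both stages, and no other hedgehog gene reached 1.5-fold at a brightest probe measured on both arrays. At E8.5, 2 of 9 genes passed 1.5-fold (*Hhip* lower and *Dhh* higher), beside 11.7% of all genes, and the 1 gene that was lower compares with 6.52% of all genes. With spike-in scaling 6 passed, all lower (*Shh*, *Ihh*, *Ptch1*, *Smo*, *Gli1* and *Hhip*), and with no scaling 3 passed (*Gli1* and *Hhip* lower, *Dhh* higher). At E10.5, only *Hhip* passed, again lower, beside 7.73% of all genes in either direction and 4.22% lower. Such small counts do not set the hedgehog genes apart from all genes. Between stages, 5 of 9 genes passed limma's adjusted p of 0.05, beside 37.6% of all genes. *Dhh* and *Hhip* rose from E8.5 to E10.5 (17.2% of all genes rose), and *Ihh*, *Ptch1* and *Gli1* fell (20.4% of all genes fell).

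**Figure D1:**
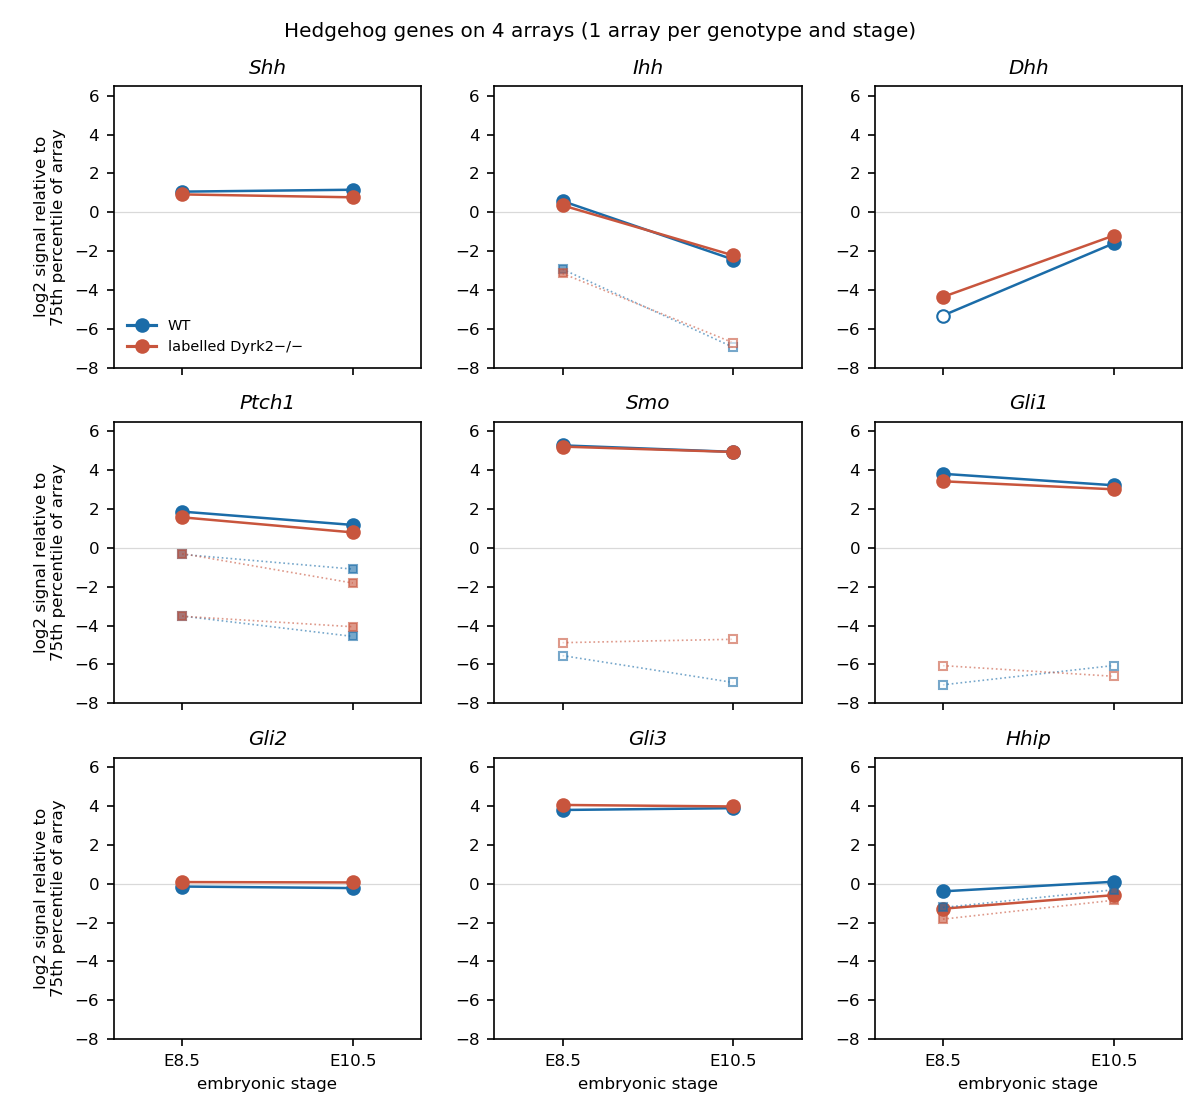
Log2 signal of every probe of the 9 hedgehog genes relative to the 75th percentile of its array (vertical axis) at E8.5 and E10.5 (horizontal axis), 1 array per point, with WT in blue and arrays labelled Dyrk2−/− in red. Circles with solid lines are the brightest probe, squares with dotted lines the other probes, and open symbols are not well above background. The genotypes lie less than 1.5-fold apart at every brightest probe but those of Dhh at E8.5 and Hhip. Ihh is lower and Dhh higher at E10.5 than at E8.5.

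Among the ligands, *Shh* is the one that patterns the neural tube, the somites, the limb and the gut. Its single probe (NM_009170; chromosome 5 of mm9, 28783456 to 28783515) read 1.06 (log2) for WT and 0.92 for the array labelled *Dyrk2*-/- at E8.5, then 1.16 and 0.77 at E10.5. *Shh* was thus measured at both stages, and the array labelled *Dyrk2*-/- was 1.1-fold lower at E8.5 and 1.31-fold lower at E10.5. The stage difference was −0.03 ± 0.13 (log2, SE; limma adjusted p = 0.899), and the genotype difference over both stages was −0.27 ± 0.13 (adjusted p = 1), so that neither passed the test.

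*Ihh*, whose product acts in the visceral endoderm and later in gut and cartilage, had the largest fall between stages of the 9 genes. Its brightest probe (NM_010544; chromosome 1, 74991906 to 74991965) had log2 values of 0.57 (WT) and 0.35 (labelled *Dyrk2*-/-) at E8.5, then −2.44 and −2.23 at E10.5. The fall between stages was 8.07-fold on the WT arrays and 5.98-fold on the arrays labelled *Dyrk2*-/-, with a limma difference of −2.80 ± 0.17 (log2, SE; adjusted p = 4.71e-06). The other *Ihh* probe was at −2.94 and −3.16 at E8.5 and not well above background at E10.5, which bounds its fall at least 3.43-fold on the WT arrays and at least 3.06-fold on the others. Between genotypes *Ihh* was 1.17-fold lower at E8.5 but 1.16-fold higher at E10.5 on the arrays labelled *Dyrk2*-/-, and its genotype difference over both stages was 0.00 ± 0.17 (log2, SE; adjusted p = 1).

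*Dhh* moved the opposite way between stages. Its probe (NM_007857; chromosome 15, 98723465 to 98723524) read −5.32 (log2) for WT at E8.5, where it was not well above background, and −4.36 for the array labelled *Dyrk2*-/-. At E10.5 the values were −1.61 and −1.20. Every E10.5 value was thus above every E8.5 value, by at least 9.28-fold on the WT arrays and by 8.94-fold on the arrays labelled *Dyrk2*-/-, and the limma difference, which takes the dim value as measured, was 3.44 ± 0.26 (log2, SE; adjusted p = 1.86e-05). Between genotypes *Dhh* was at least 1.37-fold higher on the array labelled *Dyrk2*-/- at E8.5 and 1.32-fold higher at E10.5. The count at E8.5 includes *Dhh* through its value on the WT array, a log2 ratio of 0.96 that the bound does not reach. The normexp background correction shrank its stage difference to 1.43 and its E8.5 ratio to 0.35 (log2).

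Markers of tissues that produce or respond to these ligands moved between the same arrays. Of the 12 yolk sac visceral endoderm markers on the arrays, 9 fell and 2 rose from E8.5 to E10.5 by limma, with a median log2 difference of −4.30, and the gut endoderm markers fell at 10 of 10, beside 20.4% of all genes that fell and 17.2% that rose. The summed linear level of the yolk sac list was 98.4 times the 75th percentile on the WT and 57.6 times on the array labelled *Dyrk2*-/- at E8.5, then 28.1 and 23.1 times at E10.5. The brightest gene of the list was *Spink1* on the WT and *Rbp4* on the array labelled *Dyrk2*-/- at E8.5, and on both E10.5 arrays it was *Afp*, which with *Trf* rose between stages. That of the gut endoderm list, led by *Krt18*, was 159 and 138 at E8.5, then 29.2 and 36.4 at E10.5. All yolk sac markers were above background at E8.5, and 11 (WT) and 10 (labelled *Dyrk2*-/-) of 12 were so at E10.5. *Spink1* (−7.50) and *Apoc2* (−6.63) had the lowest log2 stage differences of this list. Most yolk sac markers and all endoderm markers thus fell between stages as *Ihh* did, and their part in the *Ihh* difference was not tested.

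**Figure D2:**
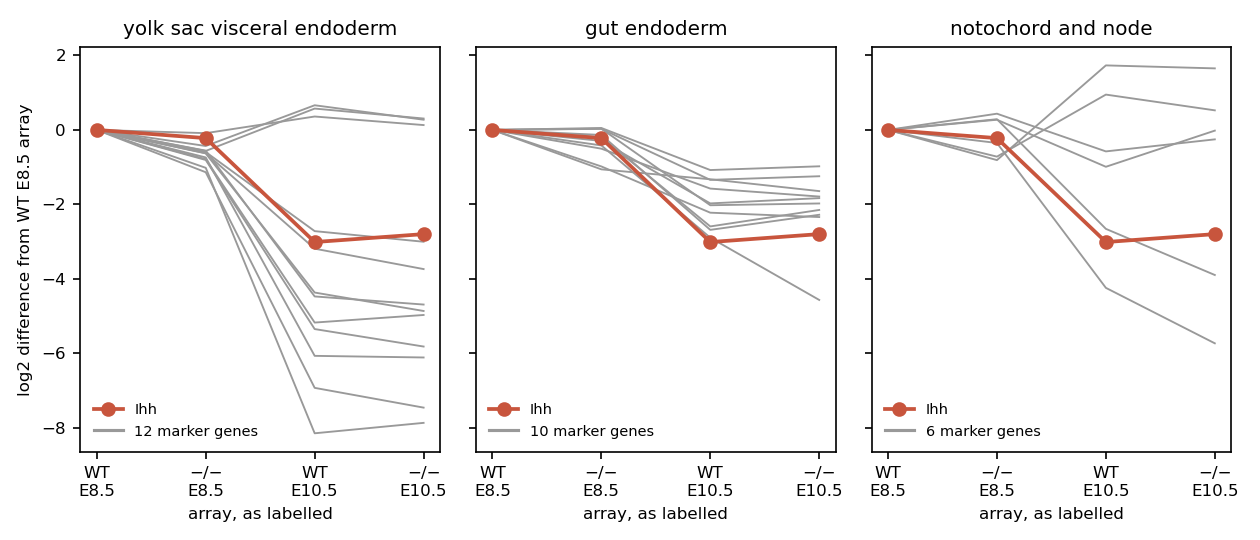
Log2 difference of Ihh (red, brightest probe) and of marker genes (grey, 1 line per gene, brightest probe) from the WT E8.5 array (vertical axis) on each of the 4 arrays (horizontal axis), in 3 panels for yolk sac visceral endoderm, gut endoderm, and notochord and node. Values below background are drawn as measured; Ihh and all 10 gut endoderm markers lie lower on both E10.5 arrays than on the WT E8.5 array.

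Of the notochord and node markers besides *Shh*, *T* had log2 values of 2.0 and 1.64 at E8.5, then −2.25 and −3.74 at E10.5 (WT first), and *Noto* was well above background at E8.5 only. *Chrd* was well above background on none of the 4. The summed level of these 6 genes, led by *T* at E8.5 and *Sox9* at E10.5, was 5.91 on the WT and 4.51 on the array labelled *Dyrk2*-/- at E8.5, then 3.59 and 2.72 at E10.5. Floor plate markers, led by *Foxa2*, summed to 7.31 and 4.86 at E8.5, then 6.05 and 4.77 at E10.5, with *Ferd3l* well above background on none of the arrays. Both sums were therefore lower on the arrays labelled *Dyrk2*-/- at each stage, but the single genes went both ways. On those arrays 3 of the 6 notochord genes were lower and 3 higher at E8.5, then 4 lower and 2 higher at E10.5, and of the 5 floor plate genes 2 were lower and 3 higher at E8.5, then 5 lower at E10.5, dim values counted as measured. Their part in the *Shh* ratios was not tested.

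Among the receptors, Ptch1 binds the ligand and holds Smo inactive in its absence, and its gene is also a target of the pathway. The brightest *Ptch1* probe (ENSMUST00000195258; chromosome 13, 63638793 to 63638852) had log2 values of 1.87 (WT) and 1.58 (labelled *Dyrk2*-/-) at E8.5, then 1.19 and 0.80 at E10.5. *Ptch1* was highest on the WT E8.5 array and lowest on the E10.5 array labelled *Dyrk2*-/-, and it fell between stages by 0.73 ± 0.13 on the log2 scale (SE; limma adjusted p = 0.00224). With spike-in scaling this stage call was lost (log2 difference −0.45, adjusted p = 1, range over 8 alternatives 5.46e-08 to 1). Between genotypes it was lower by 1.23-fold for the mutant label at E8.5 and 1.31-fold lower at E10.5, with a difference over both stages of −0.34 ± 0.13 (log2, SE; adjusted p = 0.933).

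The 3 *Ptch1* probes did not give the same picture between genotypes. A probe for NM_008957 had log2 values of −0.33 and −0.29 at E8.5, then −1.09 and −1.81 at E10.5, a signal 1.65-fold lower for the mutant label at E10.5. A dimmer probe for the same transcript gave −3.51 and −3.52 at E8.5, then −4.55 and −4.06 at E10.5, a signal 1.41-fold higher for that label at E10.5. At E8.5 these probes differed by 1.03-fold and 1.01-fold. All 3 probes were lower at E10.5 than at E8.5 in both genotypes, and the stage difference passed the test at the brightest and at the first NM_008957 probe (−1.14 ± 0.20, log2, SE; adjusted p = 0.00219) but not at the dimmest (adjusted p = 0.0856).

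*Smo* encodes the membrane protein that carries the signal inward and, at its brightest probe (NM_176996; chromosome 6, 29711225 to 29711284), had log2 values of 5.29 (WT) and 5.22 (labelled *Dyrk2*-/-) at E8.5, then 4.95 and 4.95 at E10.5. The genotypes differed by 1.05-fold and 1.0-fold, less than the spread between spots, except under no scaling and spike-in scaling, which moved the log2 ratio to −0.32 and −0.61 at E8.5 and to −0.14 and 0.16 at E10.5. The stage difference of −0.30 ± 0.11 (log2, SE) did not pass the test (limma adjusted p = 0.0633). A second *Smo* probe was well above background on none of the arrays.

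Of the Gli factors, Gli1 is an activator whose transcription follows pathway activity. *Gli1* at its brightest probe (NM_010296; chromosome 10, 126766967 to 126767026) had log2 values of 3.82 (WT) and 3.44 (labelled *Dyrk2*-/-) at E8.5, then 3.23 and 3.02 at E10.5. The order of the arrays was that of *Ptch1*, with the WT array higher at each stage, by 1.31-fold at E8.5 and 1.16-fold at E10.5. Between stages *Gli1* fell by 0.50 ± 0.12 on the log2 scale (SE; limma adjusted p = 0.0111). This stage call was lost under 5 of 8 alternatives, with adjusted p-values (log2 differences) of 0.0523 (−0.32) with quantile normalization, 0.051 (−0.32) with the deposited table, 0.0857 (−0.50) without the intensity trend, 0.243 (−0.26) with no scaling and 1 (−0.22) with spike-in scaling (range over all 8 from 0.000251 to 1). The genotype difference was −0.30 ± 0.12 (log2, SE; adjusted p = 0.981), and the other *Gli1* probe was below the background mark on all 4 arrays.

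*Gli2* and *Gli3* encode the factors that are processed into activators or repressors according to the signal, Gli2 mainly as an activator and Gli3 mainly as a repressor. *Gli2* (NM_001081125; chromosome 1, 120731255 to 120731314) had log2 values of −0.14 (WT) and 0.09 (labelled *Dyrk2*-/-) at E8.5, then −0.22 and 0.07 at E10.5. *Gli3* (NM_008130; chromosome 13, 15821502 to 15821561) had values of 3.80 and 4.06 at E8.5, then 3.89 and 3.98 at E10.5. Both were higher on the arrays labelled *Dyrk2*-/-, *Gli2* by 1.17-fold and 1.22-fold and *Gli3* by 1.2-fold and 1.06-fold, except that spike-in scaling turned the E8.5 ratios to −0.32 and −0.29 (log2), no scaling turned *Gli2* to −0.03 at E8.5, and no scaling turned *Gli3* to −0.04 at E10.5. Neither gene changed between stages by the test (log2 differences of −0.05 ± 0.14 for *Gli2* and 0.01 ± 0.12 for *Gli3*, SE; limma adjusted p = 0.81 and 0.968) or between genotypes over both stages (adjusted p = 1 for each).

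*Hhip*, the feedback target whose product sequesters the ligand at the cell surface, had the largest genotype difference of the brightest probes measured on both arrays of a pair. Its brightest probe (NM_020259; chromosome 8, 82489879 to 82489938) had log2 values of −0.39 (WT) and −1.28 (labelled *Dyrk2*-/-) at E8.5, then 0.10 and −0.59 at E10.5. The array labelled *Dyrk2*-/- was 1.86-fold lower at E8.5 and 1.61-fold lower at E10.5, and the other probe was 1.52-fold and 1.45-fold lower, with values of −1.22 and −1.82 at E8.5, then −0.31 and −0.85 at E10.5. At both probes and both stages the WT array was thus the higher one. The genotype difference over both stages was −0.79 ± 0.15 (log2, SE) and did not pass adjustment over all probes (limma adjusted p = 0.201). The log2 ratio at the brightest probe was negative under every alternative tried, from −1.44 to −0.62 at E8.5, then from −0.82 to −0.53 at E10.5, where spike-in scaling (−0.53) and the normexp correction (−0.57) put it under 1.5-fold.

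Between stages *Hhip* rose by 0.60 ± 0.15 (log2, SE; limma adjusted p = 0.0131) at its brightest probe and by 0.94 ± 0.15 (adjusted p = 0.00162) at the other. The call at the brightest probe was lost with spike-in scaling (log2 difference 0.88, adjusted p = 0.557) and without the intensity trend (0.60, adjusted p = 0.0646), over a range of 2.06e-05 to 0.557 in 8 alternatives. *Hhip* therefore moved up between stages while *Ptch1* and *Gli1*, the other targets among the 9 genes, moved down. Over both stages the 3 feedback targets had negative genotype differences at their brightest probes, while the dimmest *Ptch1* probe had a difference of 0.24 (log2). No hedgehog gene passed limma's adjusted p of 0.05 by genotype, beside 0.0285% of all genes (6 of 21039). At an unadjusted p under 0.05, 4 of 9 passed at their brightest probes (*Ptch1*, *Gli1* and *Hhip* lower, *Dhh* higher), beside 5.68% of all genes. *Ptch1* passed at its brightest probe (limma, unadjusted p = 0.025) but not at its other probes (0.117 and 0.469). This count of 4 became 0 with spike-in scaling, 2 without the intensity trend, 3 with all 4 arrays above background and 5 with no filter.

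Other tissues also differed between the genotypes. All 10 primitive red cell markers were higher at E8.5 on the array labelled *Dyrk2*-/-, where their summed level was 382 against 16.9 on the WT array, with *Hbb-bh1* as the brightest gene on both, and the sums at E10.5, led by *Hbb-y*, were 1599 for that genotype and 1375 for WT. All 10 passed 1.5-fold at E8.5, dim values counted as measured, beside 11.7% of all genes in either direction. On the WT E8.5 array 8 of the 10 were well above background, and *Klf1* was among those that were not. All 12 yolk sac markers were lower on the E8.5 array labelled *Dyrk2*-/-, 8 of them by 1.5-fold or more (beside 6.52% of all genes), and 9 of 11 measured were lower at E10.5 with 0 at 1.5-fold (beside 4.22%). The hedgehog genes were read on the same embryos, and the part of these tissues in the *Hhip*, *Dhh* and *Ihh* ratios was not tested.

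The remaining marker lists are of the neural tube, the limb bud, vessels, and decidua and trophoblast. Neural tube markers, led by *Sox3* at E8.5 and *Nes* at E10.5, summed to 37.1 (WT) and 38.5 (labelled *Dyrk2*-/-) at E8.5, then 57.7 and 50.3 at E10.5. Limb bud markers, led by *Fgf8* at E8.5 and *Lhx2* at E10.5, summed to 16.1 and 16.1 at E8.5, then 25.8 and 23.1 at E10.5, and endothelial markers, led by *Kdr*, to 13.7 and 17.2 at E8.5, then 18.6 and 17.3 at E10.5. Of these lists, *Pou3f2* (1 of 6 neural tube markers) and *Emcn* (1 of 7 endothelial markers) passed 1.5-fold at E8.5, both higher, beside 11.7% of all genes. Only *Hoxd13* (1 of 8 limb bud markers) passed at E10.5, lower, beside 7.73%. All 7 endothelial markers were higher on the array labelled *Dyrk2*-/- at E8.5, then 2 were higher and 5 lower at E10.5. Of 9 decidua and trophoblast markers, *Prl3c1*, *Tpbpa*, *Cts7* and *Ctsq* were well above background on none of the arrays. The sums of this list, led by *Gcm1*, were 23.7 and 17.1 at E8.5, then 17.9 and 21.4 at E10.5. Of the 5 genes of this list measured at E8.5, 4 passed 1.5-fold, beside 11.7% of all genes. On the array labelled *Dyrk2*-/-, *Prl8a2* was 2.72-fold higher and *Prl3d1*, well above background on that array alone (−2.09, log2), at least 6.62-fold higher, while *Plac8* was 1.63-fold lower and *Gcm1* 1.59-fold lower. The annotation places the 3 *Gcm1* probes at different positions on chromosomes 5 and 7, so that its values may not be those of 1 gene. At E10.5 0 of 3 measured passed, beside 7.73%. The part of these tissues in the hedgehog ratios was not tested.

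The rest of the pathway was read from 72 further genes in 4 groups. At E8.5, 7 of 69 measured genes (10.1%) passed 1.5-fold, beside 11.7% of all genes, of which 5 were higher and 2 were lower in the mutant-labelled embryos, and the median log2 ratio was 0.07 beside −0.02 over all genes. This balance turned with the scaling, to 0 higher and 7 lower with no scaling and 0 higher and 23 lower with spike-in scaling. At E10.5, 7 of 71 (9.86%) passed and all 7 were lower, beside 7.73% of all genes in either direction and 4.22% lower, with a median of −0.08 beside 0.00. Of these 7, 6 were known targets, a list chosen with earlier results of these data known. By stage, 39 of 71 genes (54.9%) passed limma's test, beside 37.6% of all genes. Of these, 24 were higher and 15 lower at E10.5, beside 17.2% and 20.4% of all genes, and none passed by genotype (limma, 6 of 71 at an unadjusted p under 0.05, all 6 among the known targets, beside 5.68% of all genes).

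Ligand modification, release and uptake covers the enzymes, carriers and proteoglycans that make the ligand mobile. Of these 12 genes, 5 rose and 1 fell between stages, beside 17.2% and 20.4% of all genes. *Scube1* and *Scube3*, which help release the lipid-bearing ligand, rose by 1.77 and 1.16 (log2 differences), and *Lrp2*, an endocytic receptor that takes up Shh and is also abundant in yolk sac endoderm, fell by 2.11. *Ext2* had a stage difference of −0.40 that did not pass the test. At E8.5 *Scube1* had log2 values of 1.16 (WT) and 1.89 (labelled *Dyrk2*-/-), a 1.66-fold higher signal, and *Hhat*, which adds palmitate to the ligand, was 1.28-fold higher, while *Lrp2* and *Gpc3* were 1.28-fold and 1.13-fold lower. At E10.5 *Disp2* was 1.8-fold lower and *Hhat* 1.14-fold lower, while *Lrp2* and *Ext2* were 1.22-fold and 1.2-fold higher. *Disp1*, which exports the ligand, was 1.19-fold and 1.02-fold higher. At E8.5 the ratio was larger at weaker probes of *Scube2* (2.78-fold higher) and *Scube3* (2.37-fold higher) and just under 1.5-fold higher at the other *Scube1* probe.

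Co-receptors and partners of Smo had no genotype call. None of the 14 genes reached 1.5-fold at its brightest probe at either stage (beside 11.7% and 7.73% of all genes), and 6 rose and 1 fell between stages (beside 17.2% and 20.4%). The co-receptors that present ligand to Ptch1 rose together, with log2 stage differences of 1.15 for *Gas1*, 0.36 for *Cdon* and 0.54 for *Boc* (limma adjusted p = 0.000164, 0.0465 and 0.0123), and *Dhcr7*, an enzyme of cholesterol synthesis, rose by 0.76. *Evc2*, a ciliary partner of Smo, fell by 0.65. Between genotypes *Gas1* was 1.09-fold higher and 1.02-fold lower, *Cdon* 1.04-fold higher and 1.03-fold lower and *Boc* 1.1-fold higher and 1.02-fold lower at E8.5 and E10.5 on the arrays labelled *Dyrk2*-/-. The other named ratios at E8.5 were those of *Dhcr7* (1.42-fold higher), *Arrb2* (1.28-fold lower) and *Dlg5* (1.1-fold lower), and at E10.5 those of *Arrb1* (1.31-fold higher), *Iqce* (1.04-fold higher) and *Grk2* (1.14-fold lower). Weaker probes of 4 of these genes, well above background on all 4 arrays, did pass. On the arrays labelled *Dyrk2*-/- a *Cdon* probe for the same transcript was 1.59-fold higher at E8.5 and 2.35-fold higher at E10.5. At E8.5 alone, probes of *Iqce* and *Grk2* were 1.84-fold and 1.79-fold higher, and both other *Arrb2* probes were 1.56-fold and 2.03-fold lower.

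Intracellular regulators of Gli include Sufu, which retains Gli proteins in the cytoplasm, the ciliary kinesin Kif7, and Gpr161, a ciliary receptor that restrains the pathway. Of 19 genes, 5 rose and 3 fell between stages (42.1%), close to the 37.6% of all genes. *Sufu* fell (−0.54, log2, adjusted p = 0.0112), *Gpr161* rose (0.47, adjusted p = 0.0209), and *Kif7* had a difference of −0.30 (adjusted p = 0.148; all limma). *Zic1*, a zinc finger factor of the dorsal neural tube, rose by 3.51 and *Stk36* by 0.71, and *Tulp3* and *Csnk1a1* fell by 0.61 and 0.54. Between genotypes *Sufu* was 1.01-fold and 1.08-fold higher, *Kif7* 1.17-fold and 1.09-fold higher, and *Gpr161* 1.07-fold higher and 1.1-fold lower at E8.5 and E10.5. *Ulk3* and *Zic2* were each 1.51-fold higher at E8.5 at their brightest probes. That of *Ulk3* is placed on chromosome 15 in the array annotation, and the other *Ulk3* probe, placed on chromosome 9, was 1.13-fold higher, while the other *Zic2* probe was 1.18-fold higher. At that stage *Hdac1* and *Csnk1a1* were 1.25-fold and 1.14-fold lower. At E10.5 none reached 1.5-fold at its brightest probe, beside 7.73% of all genes, and *Prkaca* and *Prkacb*, catalytic subunits of protein kinase A, were both 1.21-fold lower. Weaker probes differed here too. A *Sufu* probe was 1.75-fold lower at E10.5, and at E8.5 an *Hdac1* probe was 1.52-fold higher and a pair of *Csnk1a1* probes 1.57-fold and 1.58-fold lower. Probes of *Prkar1a* and *Ankmy2*, dim on the E8.5 array labelled *Dyrk2*-/-, were at least 4.43-fold and at least 2.27-fold lower there.

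Known targets in the embryo had the most calls of the 4 groups at each stage, which was not tested as a difference between lists. Of 24 measured at E8.5, 2 were higher and 2 lower by 1.5-fold or more (16.7%, beside 11.7% of all genes). Of 26 measured at E10.5, 6 were lower and 0 higher (23.1%, beside 4.22% of all genes lower). The list was chosen with earlier results of these data known and holds genes that the study had named from these arrays. Its shares beside those of all genes are therefore no independent support. *Nkx2-2*, a gene of the ventral neural tube, passed 1.5-fold in the same direction at both stages. It had log2 values of −3.55 (WT) and −4.71 (labelled *Dyrk2*-/-, not well above background) at E8.5, then −1.98 and −2.96 at E10.5, at least 1.98-fold lower at E8.5 and 1.98-fold lower at E10.5. A second, dimmer *Nkx2-2* probe, above background only at E10.5, was 1.05-fold lower there. *Pax1*, a gene of the sclerotome, passed at both stages in opposite directions. *Foxa2*, expressed in floor plate, notochord and endoderm, had values of 2.41 and 1.35 at E8.5, then 1.09 and 0.77 at E10.5 and was 2.08-fold and 1.25-fold lower. *Foxa1* was 1.42-fold lower at E8.5, where *Olig2*, a gene of the motor neuron domain, was 1.75-fold higher.

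Among the targets, *Foxf2*, *Foxl1* and *Foxf1* are Fox genes of the gut and lung mesenchyme. *Foxf2* had log2 values of −1.23 (WT) and −1.67 (labelled *Dyrk2*-/-) at E8.5, then −0.09 and −1.49 at E10.5, and *Foxl1* had values of −2.04 and −2.53 at E8.5, then −1.86 and −3.07 at E10.5. At E10.5 these were 2.64-fold and 2.31-fold lower on the array labelled *Dyrk2*-/-. *Foxf1*, in contrast, had values of 3.61 and 3.62 at E8.5, then 2.16 and 2.30 at E10.5, 1.0-fold and 1.1-fold higher, and *Mycn* was 1.09-fold higher at E10.5. By stage, 8 of 26 targets rose and 10 fell, beside 17.2% and 20.4% of all genes. *Hoxd13* and *Pax1* rose by 2.69 and 2.34 (log2 differences), *Nkx2-9* and *Foxa1* fell by 1.90 and 1.43, and *Foxf1* fell by 1.39 (limma adjusted p = 4.08e-05).

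**Figure D3:**
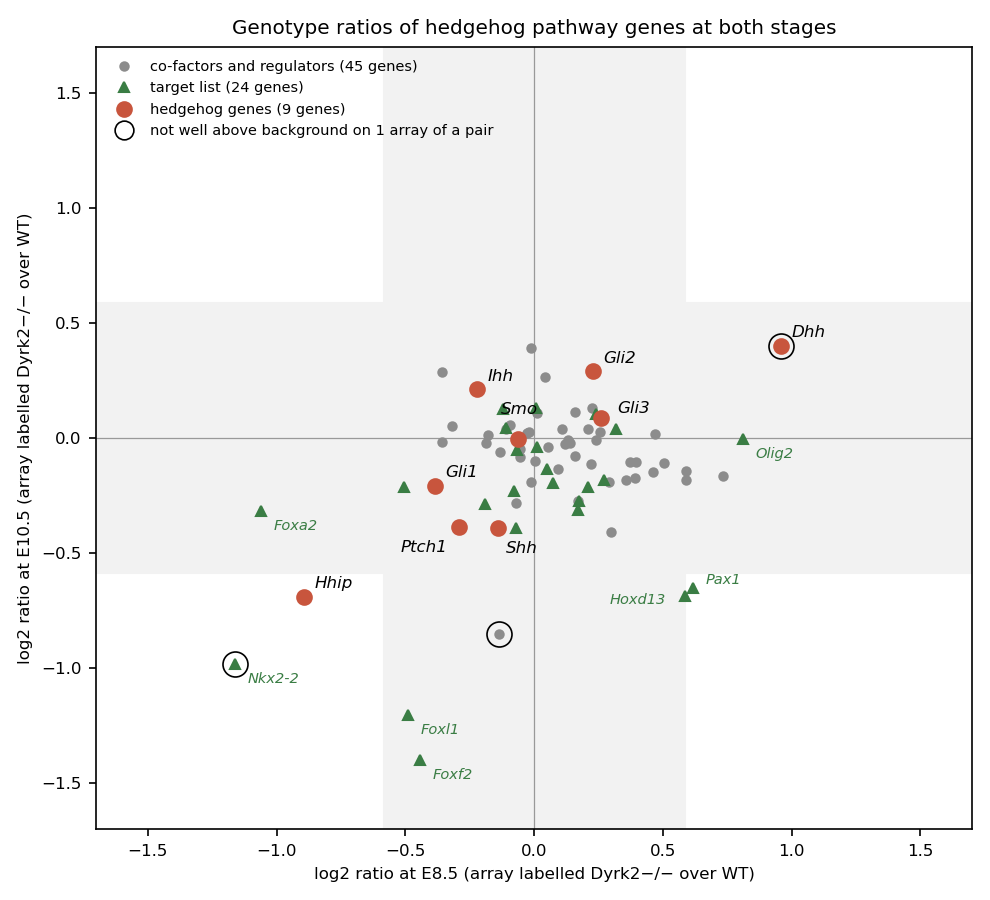
Log2 ratio of the array labelled Dyrk2−/− over WT at E8.5 (horizontal axis) and at E10.5 (vertical axis) for the brightest probe of each gene, with hedgehog genes in red, the target list as green triangles and the other pathway genes in grey. The grey bands mark ratios under 1.5-fold and rings mark ratios with 1 array not well above background; Hhip (−0.89 and −0.69) and Nkx2-2 are the genes below the bands at both stages.

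The patterns over the 4 arrays were set beside those of all genes measured on every array, as the Euclidean distance of log2 values, each gene centred on its mean (18805 genes). The genes nearest to *Shh* were *Ppm1h* (distance 0.04), the unnamed transcript NAP103489-1 (0.04) and *Zfp318* (0.05), those nearest to *Ptch1* were *Cdcp1* (0.05), *Selenov* (0.06) and *Nrcam* (0.07), and those nearest to *Gli1* were *Klhl2* (0.02), *Lipo1* (0.02) and the transcript ENSMUST00000118719 (0.05). Within a distance of 0.2 lay 352 genes for *Shh*, 45 for *Ptch1* and 282 for *Gli1*. With 4 arrays such closeness was thus common, and it describes these arrays only.

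Each value comes from 1 short stretch of the transcript. The last 30 bases of the brightest probe of each gene are given 5′ to 3′ as the array annotation has them, because the values above rest on them, with capitals marking AATAAA, the letters of the polyadenylation signal.
Shh: ggatgtttttgcatttataaactgagaagt
Ihh: atgttttggtctttcttttgtAATAAAaat
Dhh: tttgtggccaaAATAAAgattctagagtga
Ptch1: tttagaaaatccagtacgctaagttctccc
Smo: ttcaagaaccagacaacaggatgccttaga
Gli1: gaaagaacaaactttaataatgacacagtt
Gli2: ttaactgaatttgcttgttcagtatggcct
Gli3: tcctgcagatgtgtaaAATAAActgtgttc
Hhip: ggatttaatgaatttttaggtgaaaggatg
The signal AATAAA was in 3 of these 9 probes (*Ihh*, *Dhh* and *Gli3*) over their whole length of 60 bases, and in 9.77% of all probes of the arrays, and is a match of letters, not a mapped site. The processed forms of the Gli proteins were not measured by these arrays.

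Promoter windows of 300 bases around the gene start (RefSeq, GRCm38.p6) were matched by symbol for 7 of the 9 genes, and *Shh* and *Gli1* had no entry. The letters GACCACCCA, the core of the sequence that Gli zinc fingers bind, were searched on both strands. None of the 7 windows held them, nor did the 69 windows of the other pathway genes, beside 0.253% of all 32851 windows. This says only that these letters were not in these windows.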

How the data were processed

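One-colour (Cy3) Agilent arrays measured whole-embryo RNA, 1 array for each genotype and stage. The deposited scanner files hold linear intensities made by the authors with Feature Extraction (10.7.1.1 per the file headers, 9.5.1.1 per the labels), background-subtracted and corrected for position but not scaled between arrays. A deposited table of linear intensity, whose 4 columns share 1 distribution, was used as an alternative; how it was scaled is not given in the sources used here. Each array held 59305 spots that were not controls, of which 0 were saturated, and the probes well above background numbered 31370 (WT) and 30226 (labelled *Dyrk2*-/-) at E8.5, then 31818 and 31943 at E10.5. The number of arrays limits the precision.

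Spots marked as outliers were dropped, log2 intensities were averaged per probe, and the 75th percentile over probes was subtracted per array. A genotype ratio needed 1 or both arrays of the pair to be well above background. A probe dim on 1 array gave a bound, for which its value there was replaced by that array's lowest well-above-background value where that was higher. limma 3.58.1 (R 4.3.3) was fitted with stage plus genotype, using eBayes with an intensity trend. It took the 32289 probes that 2 or more arrays measured above background, with p-values adjusted over all of them (Benjamini-Hochberg). It was tested on simulated data, and the outcome is not given here. Python 3.11.15, numpy 2.4.6, pandas 2.3.3 and matplotlib 3.10.9 were used. Probes were named by RefSeq accession where the reference held it (32993 matched, 1535 renamed), and hedgehog genes by the annotation's own names; coordinates are mm9.

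All probes of the 9 genes are named. Of the other lists, genes fixed by name, genes past 1.5-fold at both stages, and per list the 2 largest changes in each direction between genotypes and between stages among probes well above background on both sides are named; marker genes named singly were chosen after their values were seen. Some genes that fall under these rules are not reported here. Members and lists were chosen with earlier results of these data known. Alternatives were quantile normalization, spike-in scaling, no scaling, a normexp correction (offset 50), the deposited table, stricter and no filters, a 2-fold threshold, a Z-score over 2 or under −2, gene means over probes, and limma without its trend.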

Additional observations from a re-analysis of the deposited data

Results flagged for a closer look

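*Pax1* had a log2 genotype ratio of 0.62 at E8.5 and of −0.65 at E10.5 at its brightest probe, so that the arrays labelled *Dyrk2*-/- stood on opposite sides of WT at the 2 stages, each by 1.5-fold or more. The difference between stages was not tested. The other *Pax1* probe was lower on the array labelled *Dyrk2*-/- at both stages (log2 ratios of −0.49 and −0.41).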

How the results depend on the processing

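No array was left out, since limma then has no residual degrees of freedom. No paired analysis was possible because the labels link no replicates between groups, each of which has 1 array. In limma the genotype difference was taken within stages, and the stage difference within genotypes. The causes of the changes below were not tested.

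Of the hedgehog genes, 2 (1 lower) passed 1.5-fold at E8.5; this became 6 (all lower) with spike-in scaling, 3 (2 lower) with no scaling, 1 with the normexp correction, 1 with a filter on both arrays, and 0 with 2-fold or the Z-score. At E10.5 the 1 gene became 0 with spike-in scaling, the normexp correction, 2-fold and the Z-score. By stage the 5 genes became 2 with spike-in scaling and 3 without the trend. By genotype the 0 genes became 1 (*Hhip*) with no scaling and with no filter.

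Of the other pathway genes, 7 (2 lower) passed at E8.5; this became 23 (all lower) with spike-in scaling, 2 with the normexp correction, 2-fold and the Z-score, and 7 (all lower) with no scaling. At E10.5 the 7 became 4 with the normexp correction, 3 with 2-fold and 4 with the Z-score. By stage the 39 (15 lower) became 10 (2 lower) with spike-in scaling and 19 without the trend; no scaling gave 43 (9 lower).

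Of all probes, 3788 (2023 lower) passed at E8.5; this became 14881 (14461 lower) with spike-in scaling, 781 with normexp, 2204 with both arrays, 10524 with no filter, 1354 with 2-fold and 1346 with the Z-score, and no scaling gave 5531 (4723 lower). At E10.5 the 2629 (1388 lower) became 421 (177 lower) with normexp, 1311 with both arrays, 8140 with no filter, 924 with 2-fold and 1202 with the Z-score; spike-in scaling gave 2969 (851 lower) and no scaling 3092 (2183 lower). By stage the 11381 (6321 lower) became 2633 (538 lower) with spike-in scaling and 6439 without the trend; no scaling gave 11768 (3010 lower). By genotype the 6 became 29 with quantile normalization, 37 with spike-in scaling, 729 with no scaling, 25 with normexp, 40 with the deposited table, 10 with all 4 arrays, 561 with no filter and 0 without the trend.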
